A study of Mus musculus with 3 samples.

Results

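The motile cilium genes described here were taken by symbol from the count table, as all rows named Dnah, Dnai1, Dnai2, Cfap, Rsph, Drc or Tekt with a number, together with Dynlrb2 and Foxj1. The rule found 65 of 50262 genes. There were 31 cilia and flagella associated proteins (Cfap), 15 dynein heavy chains (Dnah), 1 transcript antisense to a dynein heavy chain (Dnah2os), 8 radial spoke proteins (Rsph), 5 tektins (Tekt), 3 subunits of the nexin-dynein regulatory complex (Drc), the dynein light chain Dynlrb2 and the transcription factor Foxj1. No row matched Dnai1 or Dnai2. Older symbols were not searched for by this rule, so these chains and further subunits of the families may stand in the table under other names. UMIs were seen for 64 of the 65 genes, and Rsph6a had none.

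Cells came from glioblastomas (GBMs) of adult mice carrying a conditional wild-type human EGFR transgene, constitutive loss of Cdkn2a and a conditional luciferase reporter, among other alleles, on a mixed background and of both sexes. Every tumor was started by a Cre lentivirus injected into the striatum, so that all groups share these alleles and no tumor-free brain was analysed here. Brains without cerebellum were dissociated, sorted into viable CD45- and CD45+ cells and run on inDrop, a droplet method in which captured mRNA molecules receive random tags (unique molecular identifiers, UMIs). By the annotation there was 1 tumor sample per stage (early, medium, and large, here called late), and early cells were pooled from more than 1 mouse. The 3 deposited samples are sequencing runs of 8 libraries each. The 24 libraries comprise 4 technical repeats for every stage and sort.

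After filtering, 6596 CD45- and 11185 CD45+ cells remained, with 2725, 1603 and 2268 CD45- cells at the early, medium and late stage. The CD45- cells of the 3 stages held 8100096, 6559876 and 10589403 UMIs. Some barcodes recurred, as 1660 of 15845 were found in 2 or more libraries. Of 1316 pairs of cells sharing a barcode within a stage and sort, 90.3% fell in the same class, against 13.1% of the 954 other pairs. Counting each shared barcode once left 113 of 123 ependymal-like and 329 of 380 choroid plexus-like CD45- cells, and results are given on all kept cells with this alternative beside the main counts.

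Motile cilia beat by dynein arms that slide the outer microtubule doublets against each other. The outer and inner arms are built on the Dnah heavy chains, the radial spokes and the nexin-dynein regulatory complex pass signals to the arms, and tektins and many Cfap proteins stabilize or decorate the doublets. Foxj1 is the transcription factor that switches on this program. In the brain, ependymal cells lining the ventricles carry tufts of motile cilia that move cerebrospinal fluid, whereas epithelial cells of the choroid plexus secrete the fluid and carry tufts of cilia that beat little in the adult. RFX factors, which bind the X-box motif, act beside Foxj1 on many ciliary promoters.

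RefSeq promoters of the GRCm38.p6 build, from 250 bases before to 50 after each start, were found for 52 of the 65 genes (59 promoters). The letters GTTGCC, 1 arm of the X-box, were searched on both strands and stood in 22 of the 59 promoters (37.3%) and in 12.5% of all 32851 promoters. Counted by gene, the share was 20 of 52 (38.5%) against 14.1% of 27025 genes. Both arms of the X-box, read as GTTNCC followed after 0 to 3 bases by GGNAAC (letters that overlap those of the single arm), were found in 1 of the 59 promoters (1.69%) and in 0.804% of all. The forkhead letters GTAAACA stood in 4 of the 59 (6.78%) and in 3.65% of all. These shares describe the letters alone. The promoters below are shown for 4 genes that take different positions in the results: Dynlrb2, high in ependymal-like and lower in choroid plexus-like cells; Dnah10 and Dnah5, with no UMI in choroid plexus-like cells; and Cfap298, at a like level in both. Each line gives the 250 bases before the RefSeq start, 5′ to 3′ on the strand of the gene, with matches to the X-box letters in capitals. Gene positions given below are from GENCODE, whose starts can differ. The Cfap298 window lies within the GENCODE span of that gene, and the Dynlrb2 and Dnah5 windows reach into theirs. The Dynlrb2 bases lie at chr8:116504765-116505014 (plus strand), those of Dnah10 at chr5:124724835-124725084 (plus), those of Dnah5 at chr15:28203516-28203765 (plus) and those of Cfap298 at chr16:90934850-90935099 (minus).
Dynlrb2: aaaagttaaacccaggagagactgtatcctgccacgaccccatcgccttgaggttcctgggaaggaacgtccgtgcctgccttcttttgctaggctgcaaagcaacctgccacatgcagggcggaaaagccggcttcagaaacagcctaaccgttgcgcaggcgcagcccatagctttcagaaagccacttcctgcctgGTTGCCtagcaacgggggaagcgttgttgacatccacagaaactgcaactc
Dnah10: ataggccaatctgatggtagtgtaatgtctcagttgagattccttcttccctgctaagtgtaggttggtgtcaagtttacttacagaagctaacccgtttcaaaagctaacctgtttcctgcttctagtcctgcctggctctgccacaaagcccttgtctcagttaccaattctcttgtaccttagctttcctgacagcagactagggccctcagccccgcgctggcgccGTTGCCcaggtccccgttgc
Dnah5: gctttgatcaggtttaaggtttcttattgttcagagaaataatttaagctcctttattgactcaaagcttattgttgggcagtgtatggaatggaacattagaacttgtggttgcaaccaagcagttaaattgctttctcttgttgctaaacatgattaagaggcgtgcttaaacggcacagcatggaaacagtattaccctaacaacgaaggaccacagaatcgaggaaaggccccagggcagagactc
Cfap298: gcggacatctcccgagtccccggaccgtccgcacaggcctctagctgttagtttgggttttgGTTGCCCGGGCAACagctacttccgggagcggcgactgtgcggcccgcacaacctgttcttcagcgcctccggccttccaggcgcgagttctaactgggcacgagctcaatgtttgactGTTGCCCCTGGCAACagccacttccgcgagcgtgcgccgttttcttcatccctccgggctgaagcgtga
Dynlrb2 held 1 match to a single arm, at position -51 from the RefSeq start. It is followed after 1 base by agcaac, which differs from GGNAAC in its first letter and was not counted as an arm. Dnah10 held 2, the first at position -20 and the other running past the printed bases. By the letters searched, Cfap298 was the gene with both arms, first as GTTGCCCGGGCAAC at position -188. No match was found in the Dnah5 window.

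Ependymal-like and choroid plexus-like cells were defined without the 65 genes, which were left out of clustering and of the marker lists. Other ciliary genes, among them Hydin, Ccdc40 and Ak7, were not left out of clustering, and the ependymal markers were not screened for such genes. A cluster took the name of the class with the largest share of its markers raised. Of 31 clusters, 1 was named ependymal-like, with all 13 markers (among them Tmem212, Riiad1, Sntn and Meig1). The choroid plexus-like cluster met all 10 markers of its class and 3 of the ependymal markers. The ependymal-like cluster held 123 CD45- cells, 92 early, 19 medium and 12 late, with 407253 UMIs and a median of 3186 UMIs per cell, and 3 CD45+ cells. The choroid plexus-like class held 380 CD45- cells (282, 49 and 49) with 2256133 UMIs and a median of 4814, and the remaining 6093 CD45- cells held 22585989 UMIs. No UMI of the human EGFR transgene was counted in the ependymal-like cells, which allows a level of up to 7.37 counts per 1000000 UMIs of the class (CPM), the unit of all levels below. As 92 of the 123 cells are early and early glioma or oligodendrocyte progenitor-like cells also held 0 UMIs of the transgene (3332 at the medium and 7418 at the late stage), while 12 early CD45- cells in no named class held 56, the 31 medium and late ependymal-like cells alone allow up to 24.3 CPM. Since other ependymal genes did shape the clusters, the shares of all genes called below include genes that define the classes. The markers include Sntn, Odf3b, Pifo, Enkur and Nme5, which are themselves linked to cilia. Higher levels of the 65 genes in ependymal-like cells are therefore in part built into the class. The calls and p-values below describe classes drawn with such genes and are no independent test.

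The motile cilium genes were expressed most in ependymal-like cells at every stage. Their summed level was 9583 CPM early (95% Poisson interval 9227-9950), 9761 (9055-10508) at the medium and 10434 (9565-11360) at the late stage. In choroid plexus-like cells the sum was 1843, 1736 and 2138 CPM. All 12 CD45- libraries held ependymal-like cells, and their sums ran from 7035, in a late library with 1 such cell, to 12469 CPM, while the choroid plexus-like sums of the same libraries ran from 1510 to 2294 and those of all other CD45- cells from 278 to 383. The 3 ranges did not overlap. Intervals cover counting error only, and no test was made between stages, each of which has 1 tumor sample.

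**Figure D1:**
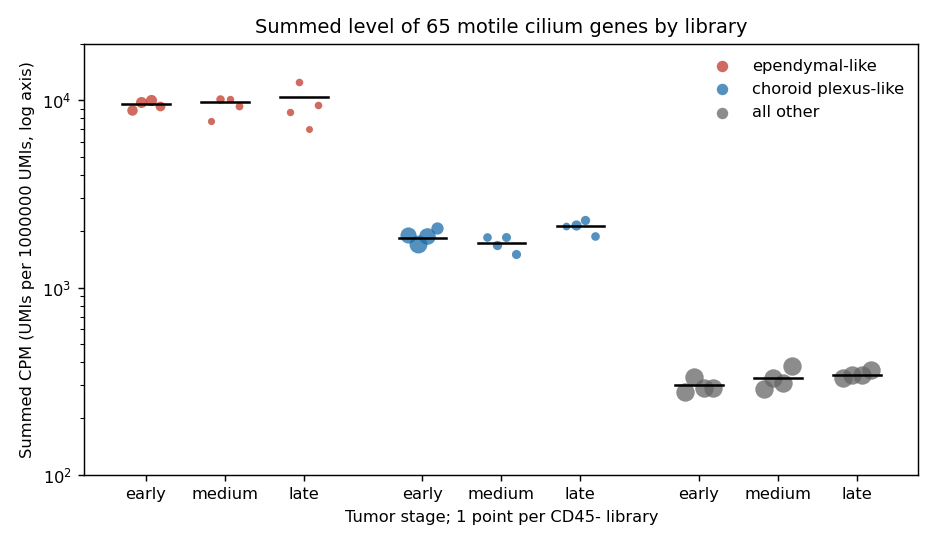
Summed level of the 65 motile cilium genes (CPM, log axis) in ependymal-like, choroid plexus-like and all other CD45- cells, with 1 point for each library, placed by tumor stage; point size grows with the number of cells and bars are the level of the stage. Ependymal-like points lie between 7035 and 12469, above the choroid plexus-like points between 1510 and 2294.

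Levels in other classes were far lower. The sums were 562, 391 and 159 CPM in early, medium and late astrocyte-like cells and 270, 280 and 257 in oligodendrocyte-like cells. Glioma or oligodendrocyte progenitor-like cells held 452, 417 and 377, and neuron or neuroblast-like cells 392, 542 and 511 CPM. CD45+ cells as a whole were at 255, 235 and 248. The astrocyte-like class was the one whose 3 values lay furthest apart, and its late value rests on 7 UMIs in 28 cells.

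The genes were seen together in single ependymal-like cells. Every one of the 123 cells held at least 2 of the genes, with a median of 15 and a highest number of 35, and the level in a cell ran from 1353 through a median of 9219 to 18824 CPM. Foxj1 itself was counted in 76 of the 123 cells. To compare classes of unequal depth, cells were thinned to 1500 UMIs each, which left out 20 ependymal-like and 31 choroid plexus-like cells. At that depth the 103 remaining ependymal-like cells held a median of 10 of the genes, the 349 choroid plexus-like cells a median of 2 and oligodendrocyte-like and CD45+ microglia-like cells a median of 0. The share of cells with any UMI of the 65 genes was then 100% in ependymal-like, 89.4% in choroid plexus-like, 27.1% in oligodendrocyte-like and 25.9% in microglia-like cells (unthinned 100%, 95.8%, 39.2% and 31.2%).

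Although ependymal-like cells were 1.86% of the CD45- cells and gave 1.61% of their UMIs, they held 3959 of the 15588 CD45- UMIs of the motile cilium genes (25.4%). Choroid plexus-like cells held 4206. Of the 58 genes with at least 10 CD45- UMIs, 21 had more than 50% of these in ependymal-like cells, and 9 had less than 10% there. The first kind included Dnah10 (98.0% of CD45- UMIs, binomial interval 89.6-100%), Dnah12 (97.7%, 88.0-99.9%) and Cfap161 (80.1%, 73.1-86.0%). The second kind included Dnah14 (1.69%), Cfap97 (2.43%), Cfap36 (3.63%), Cfap20 (5.07%), Cfap298 (8.13%) and the near-identical pair Rsph3a and Rsph3b (9.47% and 9.68%).

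**Figure D2:**
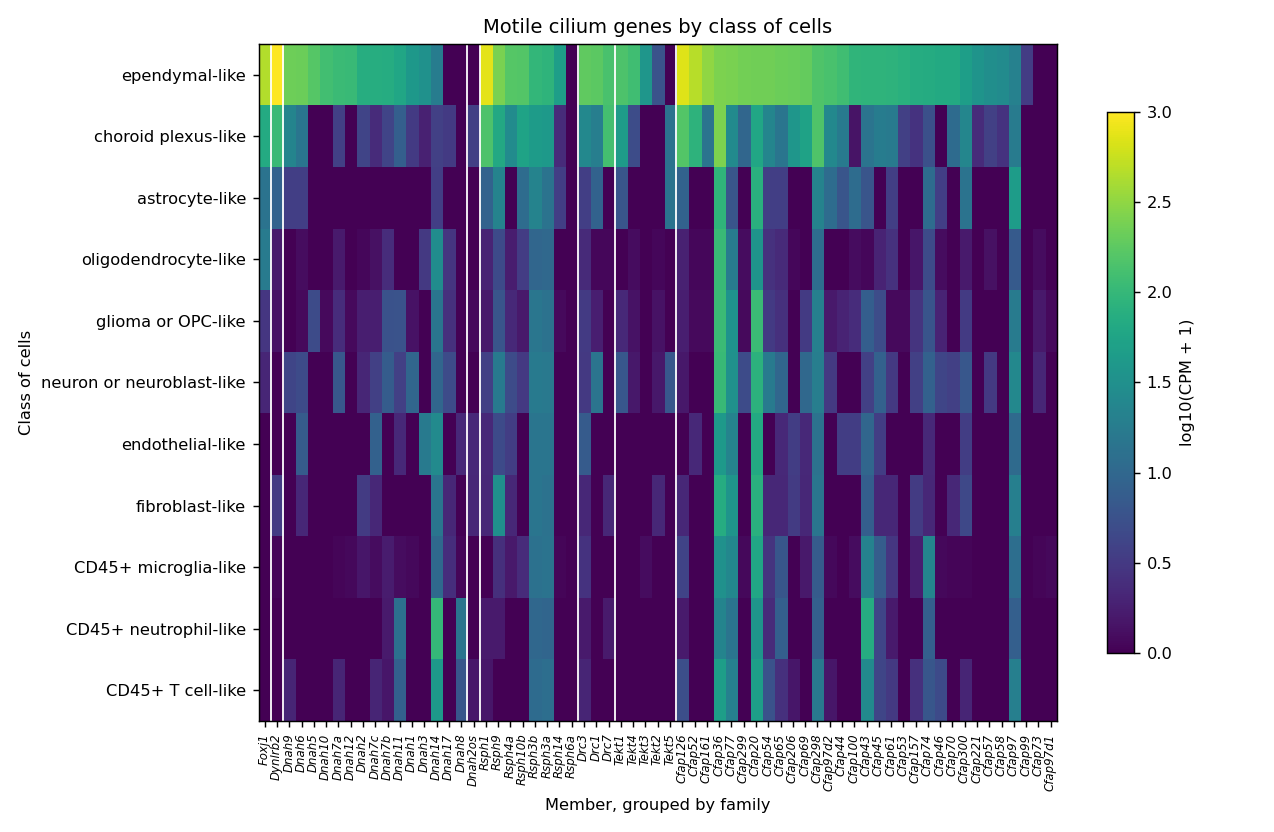
Level of each of the 65 genes (columns, grouped by family) in 11 classes of cells (rows), as log10 of CPM plus 1. Most columns are bright in the ependymal-like row, weaker in the choroid plexus-like row and dark below, while Cfap36, Cfap20, Cfap298, Cfap97, Rsph3a and Rsph3b are seen in every row.

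Ependymal-like and choroid plexus-like cells were then compared within tumor samples, on counts summed per class for the 3 tumor samples with the sample as a block. By the edgeR quasi-likelihood test with Benjamini-Hochberg adjustment over all 8505 genes tested, 17.6% of genes were higher and 13% lower in ependymal-like cells. Of the motile cilium genes 47 could be tested, and 41 were higher, 0 lower and 6 not called. Without the early sample, which holds most of the ependymal-like cells, 26 of 43 were higher, beside 841 of all 8348 genes then tested. The median log2 fold change was 2.79 over the 47 genes and -0.00532 over all genes tested. Of the 47 genes, 13 had under 10 UMIs in choroid plexus-like cells and passed the filter on low counts through their ependymal-like counts, which favours a difference (12 were called). The other 34 held 29 of the 41 calls. When no gene with a UMI was filtered out, 44 of 64 were higher and 1 lower, where 5.40% of 29254 genes were higher and 4.83% lower. By level alone, 58 of the 65 genes stood higher in ependymal-like cells, 3 lower, and 4 had no UMI in either class. This count by level is not given over all genes and has no background beside it. With shared barcodes counted once, an alternative chosen after seeing the data, 41 were again higher. No tested gene was lower at an unadjusted p under 0.05 either, DESeq2 called 0 lower, and the 1 gene called lower by edgeR without the filter was Tekt5, which the filter removes.

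Foxj1 (chr11:116330704-116335399, minus strand, GRCm38) stood at 423, 442 and 570 CPM in early, medium and late ependymal-like cells and at 61.3, 57.9 and 110 in choroid plexus-like cells. All 3 ependymal-like values lay above all 3 choroid plexus-like values. The log2 fold change was 2.39 (SE 0.39, adjusted p = 1.19e-05, edgeR quasi-likelihood test with Benjamini-Hochberg adjustment).

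The dynein heavy chains, the ATPases of the arms, had the highest ratio of ependymal-like to choroid plexus-like level among the families. Their 15 genes summed to 1294 CPM in ependymal-like and 60.3 in choroid plexus-like cells, a ratio of 21.5. Of the 10 that could be tested, 9 were higher in ependymal-like cells, beside 17.6% of all genes. However, 7 of the 10, with 6 of these calls, had under 10 choroid plexus-like UMIs and passed the filter through their ependymal-like counts. The other 3, Dnah6, Dnah9 and Dnah11, were all called. Dnah9, an outer arm chain, was at 225, 193 and 196 CPM in early, medium and late ependymal-like cells and at 16.8, 40.2 and 19.5 in choroid plexus-like cells (log2 fold change 2.89, SE 0.49, edgeR adjusted p = 1.98e-05). Dnah6, an inner arm chain, was at 218, 193 and 216 against 14.2, 15.1 and 9.73 (3.73, SE 0.52, edgeR adjusted p = 7.56e-07). Neither gene overlapped between the classes.

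Dnah5, Dnah10 and Dnah12, named after their values were seen, had no UMI in the choroid plexus-like cells. Dnah5 (chr15:28203752-28472052, plus strand), an outer arm chain, had 44, 13 and 8 UMIs in early, medium and late ependymal-like cells, in 34 of the 123 cells. Dnah10 (chr5:124725085-124834308, plus) had 31, 14 and 5, and Dnah12 (chr14:26693274-26891703, plus) had 27, 3 and 13. Against a floor of 3 counts over the choroid plexus-like class, the levels of Dnah5, Dnah10 and Dnah12 were at least 120-fold, 92.3-fold and 79.4-fold higher in ependymal-like cells. The 326 UMIs of Rsph1 in the choroid plexus-like class would go with 69.9 UMIs of Dnah5, 53.8 of Dnah10 and 46.3 of Dnah12 at the ependymal-like ratios. After thinning, Dnah5 was in 12.6% of ependymal-like and 0% of choroid plexus-like cells. Outside both classes, the other CD45- cells held 19 UMIs of Dnah5 and 1 each of Dnah10 and Dnah12. Dnah5 was at 3.83 CPM in glioma or oligodendrocyte progenitor-like cells. It was at 0 in astrocyte-like, oligodendrocyte-like, neuron or neuroblast-like, endothelial-like and fibroblast-like cells.

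Dynlrb2 (chr8:116504974-116515915, plus strand), a light chain of the roadblock type, was at 1043, 1174 and 1061 CPM in early, medium and late ependymal-like cells. In choroid plexus-like cells it was at 103, 111 and 117. The 3 values within each class lay close together and the classes did not overlap (log2 fold change 3.04, SE 0.35, edgeR adjusted p = 2.31e-08). Of all CD45- UMIs of Dynlrb2, 62.7% came from ependymal-like cells, and the 6093 cells of the other classes held 20.

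**Figure D3:**
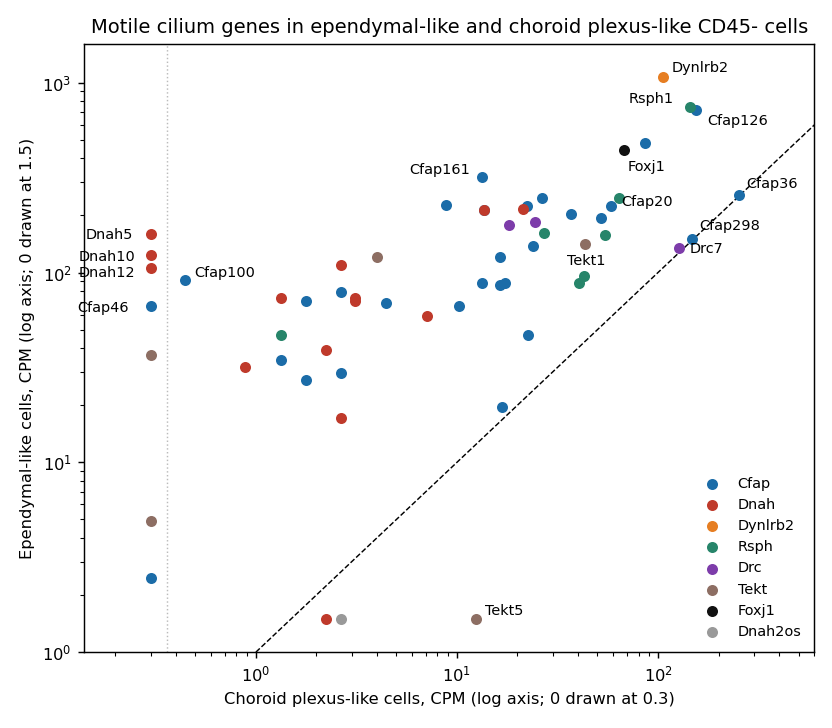
Level of each gene in ependymal-like cells (vertical, CPM, log axis) against its level in choroid plexus-like cells (horizontal, same unit, log axis), coloured by family; genes at 0 are drawn at the left or lower edge and the dashed line marks equal levels. Most genes lie above the line, Dnah5, Dnah10, Dnah12 and Cfap46 at the left edge, and Cfap36, Cfap298 and Drc7 close to the line.

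Radial spoke genes were higher in ependymal-like cells for 5 of 7 tested, beside 17.6% of all genes. Rsph14 had under 10 choroid plexus-like UMIs and passed the filter through its ependymal-like counts, and the other genes gave 4 of 6. Rsph1 (chr17:31255019-31277383, minus strand), a spoke head protein, was at 729, 773 and 786 CPM in early, medium and late ependymal-like cells and at 143, 153 and 143 in choroid plexus-like cells. The log2 fold change of Rsph1 was 2.10 (SE 0.36, edgeR adjusted p = 1.88e-05). Rsph9, another head protein, was at 257, 207 and 255 against 63.2, 90.6 and 35.7 CPM (1.69, SE 0.41, edgeR adjusted p = 0.00156). Rsph3a and Rsph3b, not called, had log2 fold changes of 1.06 each, with SEs of 0.53 and 0.51 and edgeR adjusted p of 0.136 and 0.113. Without TMM factors Rsph3b was called (1.35, edgeR adjusted p = 0.0437).

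The subunits of the nexin-dynein regulatory complex found by the rule were split. Drc1 was at 176, 207 and 138 CPM in early, medium and late ependymal-like cells and at 19.3, 17.6 and 13 in choroid plexus-like cells, and was called higher with a log2 fold change of 3.10 (SE 0.54, edgeR adjusted p = 2.84e-05). Drc3 was also called (2.60, SE 0.50, edgeR adjusted p = 0.000118). Drc7 (chr8:95055103-95078141, plus strand) was at 106, 166 and 255 CPM in ependymal-like and at 123, 111 and 172 in choroid plexus-like cells, and the classes overlapped (-0.02, SE 0.42, edgeR adjusted p = 0.982). Of Drc7, 287 CD45- UMIs came from choroid plexus-like, 55 from ependymal-like and 2 from all other cells. Nearly all CD45- UMIs of Drc7 thus lay in these epithelial classes.

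Tektins lie inside the doublet microtubules. Tekt1 was at 148, 124 and 138 CPM in early, medium and late ependymal-like cells and at 48.4, 12.6 and 58.4 in choroid plexus-like cells (1.55, SE 0.54, edgeR adjusted p = 0.0251; 0.0867 by DESeq2 and 0.119 by edgeR with every gene tested, and not called without the early or the medium sample, with 1.60 and 1.09). Tekt4 was at 106, 193 and 98.2 against 4.51, 5.03 and 0 CPM. With 49 against 9 UMIs it passed the filter on low counts through its ependymal-like counts, and the values are given without a test, with a ratio of 30.2 (counting interval 14.7 to 69.8). Tekt5 went the other way, with 28 UMIs in choroid plexus-like cells and 0 in ependymal-like cells, which allows a level of up to 7.37 beside the 12.4 CPM in choroid plexus-like cells. It did not pass the filter on low counts. Tekt3 had 15 UMIs in ependymal-like cells and none in any other CD45- cell.

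Among the Cfap genes 21 of 23 tested were higher in ependymal-like cells, beside 17.6% of all genes. Of these, Cfap46, Cfap53, Cfap100 and Cfap157 had under 10 choroid plexus-like UMIs and passed the filter through their ependymal-like counts, and the other genes gave 17 of 19. Cfap126 (chr1:171113918-171126967, plus strand), a doublet protein, was at 676, 897 and 688 CPM in early, medium and late ependymal-like cells and at 143, 179 and 185 in choroid plexus-like cells (1.88, SE 0.32, edgeR adjusted p = 1.60e-05). Cfap52 was at 454, 580 and 491 against 63.9, 123 and 149 (2.01, SE 0.41, edgeR adjusted p = 0.000211). Neither overlapped between classes. Cfap69 (1.59, SE 0.44, edgeR adjusted p = 0.00503), Cfap77 (2.85, SE 0.46, edgeR adjusted p = 1.03e-05) and Cfap20 (1.76, SE 0.41, edgeR adjusted p = 0.0011) were also called. Cfap69 was not called without the early sample, at 1.48, or without the medium sample, at 1.20, nor was Cfap20 without the medium sample, at 1.19. Rsph9 was not called without the early sample, at 1.50.

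Cfap46, Cfap100 and Cfap161 were named after their values were seen. Cfap46 had 27 UMIs in ependymal-like and 0 in choroid plexus-like cells, a level at least 49.9-fold higher. Cfap100 had 37 against 1, a ratio of 205 with a counting interval of 34.6 to 8312. Cfap161 was counted in both classes, with 129 against 30 UMIs, at 292, 318 and 452 CPM in early, medium and late ependymal-like cells and 12.9, 17.6 and 9.73 in choroid plexus-like cells (log2 fold change 4.39, SE 0.48, edgeR adjusted p = 7.26e-09).

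Cfap36 and Cfap298 were at like levels in both epithelial classes. Cfap36 (chr11:29221532-29247409, minus strand) was at 285, 166 and 216 CPM in early, medium and late ependymal-like and at 270, 196 and 237 in choroid plexus-like cells (-0.29, SE 0.35, edgeR adjusted p = 0.57). Cfap298 (chr16:90925809-90935114, minus) was at 116, 221 and 236 against 154, 123 and 143 CPM (0.03, SE 0.39, edgeR adjusted p = 0.959). A p above the threshold does not show that the levels are equal. Within these errors, values for both genes overlapped between the classes.

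Against all other CD45- cells, 46 of the same 47 genes were higher in ependymal-like cells and 0 lower, where 14.3% of all genes tested were higher and 14.7% lower. No member was lower at an unadjusted p under 0.05 or by DESeq2. The median log2 fold change was 6.98 over the 47 genes and -0.193 over all genes. Here 11 of the 47 had under 10 UMIs in the other cells, and 35 of the remaining 36 were called. Counting shared barcodes once gave 46 as well. Dynlrb2 had a log2 fold change of 10.1 (SE 0.48, edgeR adjusted p = 6.77e-18), and Foxj1 had 5.98 (SE 0.42, edgeR adjusted p = 1.07e-13). At the low end, Cfap36 had 1.18 (SE 0.35, edgeR adjusted p = 0.00959) and lost its call without the early sample, at 0.73, without the late sample, at 1.08, and with every gene tested, at 0.90 (edgeR adjusted p = 0.122). Dnah14 was not called (-0.03, SE 0.77, edgeR adjusted p = 0.983).

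Other genes of the ciliary machinery were read from lists beside the 65. These genes were not left out of clustering and could shape the classes compared, so their counts are a description, to be set beside the 17.6% and 14.3% of all genes tested that were higher than in choroid plexus-like and in other cells. Of 9 regulators of multiciliated cells 4 could be tested, and 2 were higher in ependymal-like than in choroid plexus-like cells and 4 higher than in the rest. Rfx2 was called (2.71, SE 0.52, edgeR adjusted p = 0.000106). The other call was Myb, which had 66 UMIs in ependymal-like and 0 in choroid plexus-like cells and passed the filter through the former. Rfx3 (0.09, SE 0.49, edgeR adjusted p = 0.913) and Trp73 (0.64, SE 0.75, edgeR adjusted p = 0.56) were not called. Trp73 had 0 UMIs in the rest, and the other 3 were all called against it. Of 16 dynein assembly and docking genes 11 were tested, with 9 higher than in choroid plexus-like cells and 10 higher than in the rest. Ccdc40, needed for assembly of the inner arms and regulatory complex, had 80 against 1 UMIs, and Armc4, a docking protein of the outer arm, 38 against 3. These and Dnaaf1 had under 10 choroid plexus-like UMIs, and 6 of the other 8 were called. In the rest Zmynd10, Lrrc6, Ccdc103 and Armc4 had under 10 UMIs, and 6 of the other 7 were called.

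Of 8 genes of the central apparatus, the pair of single microtubules in the axis of the cilium, 7 were tested and 6 and 7 were higher. Hydin had 79 UMIs in ependymal-like and 6 in choroid plexus-like cells, Ak7 316 and 36. Hydin and Spag17 had under 10 choroid plexus-like UMIs, and 4 of the other 5 were called. Spag6l and Spag17 had under 10 UMIs in the rest, and the other 5 were all called. Intraflagellar transport genes, which motile and primary cilia share, were tested for 18 of 19. Of these, 8 were higher than in choroid plexus-like cells, with a median log2 fold change of 1.37, and 18 were higher than in the rest, with a median of 2.62. No gene of the 4 lists was called lower in either comparison.

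The sorts were compared on sums per tumor sample, CD45- against CD45+, which asks in which compartment these transcripts lie. In such sums, fewer cells of a type and less RNA per cell cannot be told apart. Of all 18433 genes tested 25.7% were higher and 20.4% lower in CD45- cells (edgeR quasi-likelihood test with Benjamini-Hochberg adjustment). Of 43 motile cilium genes tested 27 were higher and 2 lower, with a median log2 fold change of 2.79 against 0.0379 over all genes, and counting shared barcodes once gave the same numbers. Of the 43, 12 had under 10 UMIs in CD45+ cells and all 12 were called higher, as were 15 of the other 31. Foxj1 was at 35.7, 13.9 and 10.0 CPM in early, medium and late CD45- cells and at 1.20, 0.206 and 0.557 in CD45+ cells (4.63, SE 0.40, edgeR adjusted p = 0.000186). Dynlrb2 was at 56.8, 21.5 and 8.78 against 2.59, 0.308 and 0.186 (4.65, SE 0.39, edgeR adjusted p = 0.000164).

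Both genes that were lower in CD45- cells are Cfap genes. Cfap43 was at 9.75, 3.96 and 6.80 CPM in early, medium and late CD45- cells and at 25.1, 38.4 and 22.3 in CD45+ cells, without overlap (-2.42, SE 0.41, edgeR adjusted p = 0.0033). In a neutrophil-like CD45+ cluster it stood at 96.9 CPM (78.8-118), beside 88.4 (61.9-122) in ependymal-like cells, and it was in 22.0% of the cells of that cluster. Cfap43 shares exon sequence on the same strand with Itprip, which was not analysed here. Cfap74, named after its values were seen, was at 7.28, 3.51 and 5.85 against 20.2, 5.24 and 11.5 CPM, and these values overlapped (-1.40, SE 0.29, edgeR adjusted p = 0.00654). Without the block for tumor sample Cfap74 was not called (-1.50, edgeR adjusted p = 0.0523). CD45+ microglia-like cells held 22.0 CPM of Cfap74 and 10.2 of 5830444B04Rik, an overlapping gene on the other strand.

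Cfap36, Cfap20 and Cfap97 were found in every class, with CD45+ levels of 32.3, 50.8 and 10.3 CPM. Cfap36 was nevertheless higher in CD45- cells, at 129, 115 and 101 against 32.8, 34.0 and 28.4 at the 3 stages (1.49, SE 0.19, edgeR adjusted p = 0.000804). Cfap20 (0.06, SE 0.19, edgeR adjusted p = 0.819) and Cfap97 (-0.11, SE 0.25, edgeR adjusted p = 0.748) were not called.

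Dnah14 UMIs lay mostly outside ependymal-like cells. The gene had 401 UMIs in CD45- cells outside both epithelial classes, 483 in CD45+ cells and 7 in ependymal-like cells, and its level was 103 CPM (84.1-124) in a neutrophil-like cluster against 17.2 (6.91-35.4) in ependymal-like cells. Dnah14 (chr1:181576559-181815774, plus strand) shares exon sequence with Lbr, the lamin B receptor, which lies on the other strand. Over the 21 groups of cells (cluster and sort) compared, the ratio of Dnah14 to Lbr UMIs ran from 0.643 to 1.16 with a median of 0.864, so that both counts rose and fell together. Groups with few UMIs were left out, such as choroid plexus-like CD45- cells (6 Dnah14 and 12 Lbr UMIs) and ependymal-like CD45- cells (7 and 6). The pair Rsph3a and Rsph3b had a ratio of 0.818 to 1.22 with a median of 1.03 over 18 groups. The strand used in counting is not given in the sources used here, and reads of overlapping genes on opposite strands could then not be told apart. Near-identical genes, among them Rsph3a and Rsph3b and also Dnah7a, Dnah7b and Dnah7c, are uncertain as well, and how their shared reads were split was not tested. In all, 3 of the genes shared exon sequence with a gene on the same strand and 25 with one on the other strand.

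**Figure D4:**
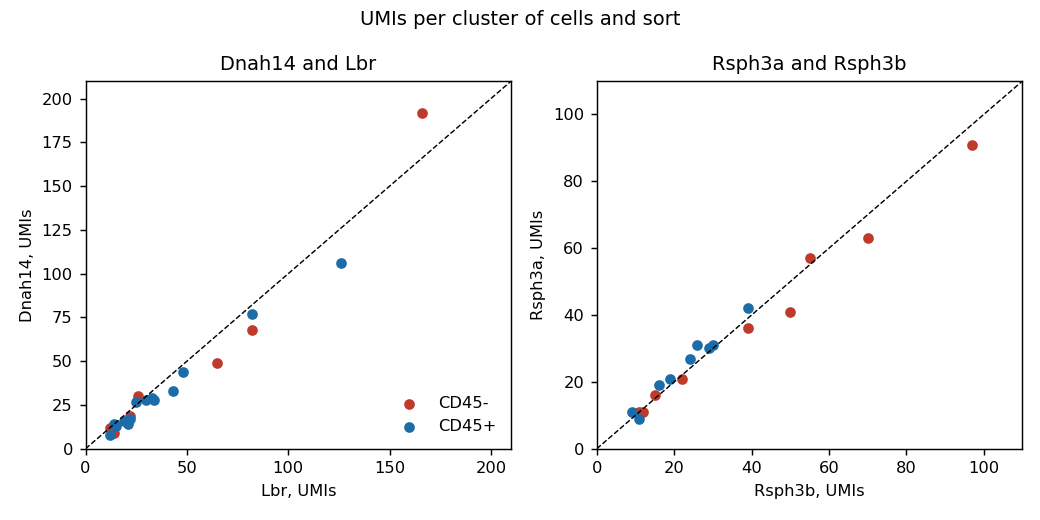
UMIs of Dnah14 against Lbr (left) and of Rsph3a against Rsph3b (right), with 1 point for each of the 21 and 18 groups compared (cluster and sort), coloured by sort. Groups with few UMIs are not drawn. The dashed line marks equal counts. Points of both pairs follow the line, with median ratios of 0.864 and 1.03.

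Foxj1 UMIs were also counted in oligodendrocyte-like cells. These held 131 UMIs, of which 121 were in 1 cluster, at 19.0 CPM (15.7-22.7) and in 3.87% of its cells. By stage the oligodendrocyte-like level was 17.7, 15.4 and 15.9 CPM, and the 3 values lay close together. The same class held 8 UMIs of Rsph1, which would go with 4.78 UMIs of Foxj1 at the ependymal-like ratio, and 5 of Dynlrb2. After thinning to 1500 UMIs, Foxj1 was in 2.45% of oligodendrocyte-like and 0% of CD45+ microglia-like cells, whose median depths were 2477 and 1898 UMIs. The microglia-like cells are from the other sort, so their 0% does not show how much Foxj1 from other cells a CD45- cell can carry. Among classes of the same sort, Foxj1 was at 0 CPM in endothelial-like and fibroblast-like cells. It was at 1.09 in neuron or neuroblast-like and 2.01 in glioma or oligodendrocyte progenitor-like cells. Early astrocyte-like cells held 5 UMIs of Foxj1, at 27.6 CPM, and medium and late astrocyte-like cells held 0. Few UMIs of Rsph1 and Dynlrb2 accompanied Foxj1 in oligodendrocyte-like cells, and where these UMIs came from was not tested.

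By stage, the level within ependymal-like cells and the share of these cells among CD45- cells gave different pictures. Ependymal-like cells were 3.38% (2.73-4.12%) of early, 1.19% (0.715-1.84%) of medium and 0.529% (0.274-0.922%) of late CD45- cells (Clopper-Pearson intervals), and 3.27%, 1.21% and 0.574% with shared barcodes counted once. The share in single libraries ran from 3.17% to 3.51% early, from 0.599% to 1.84% at the medium and from 0.176% to 0.813% at the late stage. In the CD45- sum the motile cilium genes stood at 923, 520 and 444 CPM, and ependymal-like cells gave 36.4%, 20.7% and 11.3% of these UMIs. Choroid plexus-like cells were 10.3% (9.23-11.6%), 3.06% (2.27-4.02%) and 2.16% (1.60-2.85%) of early, medium and late CD45- cells and gave 38.2%, 20.2% and 14% of the UMIs. The share of cells of both classes was highest early, and the medium and late intervals overlapped. Such shares also depend on the other cells sorted. Glioma or oligodendrocyte progenitor-like CD45- cells numbered 167, 305 and 604 at the early, medium and late stage. CD45- cells in no named class numbered 12, 173 and 539. How far these numbers moved the shares and the CD45- sum was not tested, and a lower share does not show a loss of cells. Depth differed as well, with median UMIs per CD45- cell of 2282, 3074 and 3078. Each stage is 1 tumor sample, so stage cannot be told apart from the animal or the dissection.

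Within ependymal-like cells late over early ratios were taken for 39 genes. These had at least 20 UMIs in early and late cells together and more than 3 in each. The ratios ran from 0.521 (counting interval 0.202-1.13) for Cfap77 to 5.58 (2.38-13.1) for Cfap74. Of the 39 intervals, 4 lay above 1 and 0 below. The limit on late UMIs left out genes that stood lower late, so the low end and the 0 rest on it. Such ratios were not taken over all genes. The 6 genes with at least 100 UMIs in early and late cells together ran from 1.02 (0.747-1.36) for Dynlrb2 to 1.55 (0.929-2.48) for Cfap161, and each of these intervals held 1. Among them Rsph1 was at 1.08 (0.748-1.52), Cfap126 at 1.02 (0.688-1.46) and Foxj1 at 1.35 (0.866-2.04). Genes with fewer UMIs lay on both sides of 1, such as Cfap299 at 0.611 (0.254-1.27) and Cfap36 at 0.758 (0.364-1.43). Among genes left out by the limit, Cfap206 had 71, 9 and 3 UMIs in early, medium and late cells. Its level was 250 (195-315), 124 (56.8-236) and 58.9 (12.2-172) CPM, and the early and late intervals did not overlap. Dnah7b had 28, 1 and 0 UMIs, Dnah7c 27, 1 and 2, Cfap61 29, 4 and 2, and Cfap43 29, 5 and 2. The 4 intervals above 1 belonged to Cfap74, with 13, 2 and 13 UMIs in early, medium and late cells, to Dnah12, with 27, 3 and 13, to Drc7, at 2.42 (1.16-4.78) from 30 and 13 early and late UMIs, and to Cfap53, at 2.64 (1.05-6.13) from 19 and 9. The 12 late cells limit these ratios.

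**Figure D5:**
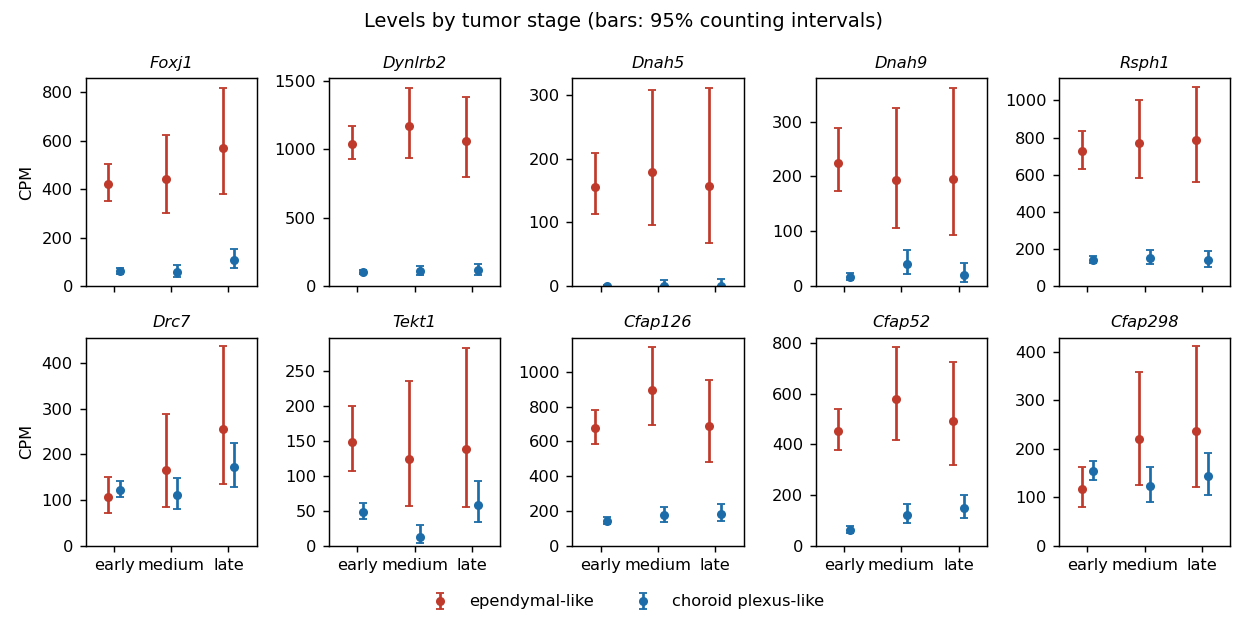
Levels of 10 genes in ependymal-like and choroid plexus-like CD45- cells (vertical, CPM) at the early, medium and late stage, with 95% Poisson intervals for counting error. Ependymal-like levels of Dynlrb2, Rsph1 and Cfap126 lie far above the choroid plexus-like levels at each stage, whereas those of Drc7 and Cfap298 overlap.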

How the data were processed

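Mouse EGFR-driven GBM cells were profiled by inDrop in 24 libraries. Part of the genotype is not reported here. The authors mapped reads with RapMap in bcbio-nextgen to the GRCm38 transcriptome (Ensembl 94; mm10 in the submitters' processing notes) and separated cells from empty droplets. The count table they deposited has not been normalized and gives UMI counts of 20811 cells. The deposited library annotation is text (unit: other) on run, barcode, sort and stage. Ambient RNA and doublet removal are stated in the methods, but not whether they preceded this table.

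Cells with at least 500 UMIs, at least 500 genes and at most 20% mitochondrial UMIs were kept, the limits of the study, and 2917 cells failed. Scrublet (scanpy 1.11.5) called 113 doublets, which were removed, leaving 17781 cells with a median of 2143 UMIs. Cells scaled to 10000 UMIs were clustered without the 65 genes (2000 variable genes, 40 principal components, 20 neighbours, Leiden resolution 1). A cluster took a class name, written with "-like", when at least 3 markers were 2-fold higher than elsewhere and in at least 10% of its cells (with several such classes, that with the largest share of its markers). Levels are counts per 1000000 UMIs of a class (CPM, calculated here), and are not compared between genes. Counts summed per tumor sample and sort, or class (at least 10 cells), were tested with the edgeR 4.0.16 quasi-likelihood test (robust fit after filterByExpr, TMM factors, Benjamini-Hochberg adjustment, two-sided, threshold 0.05), with the tumor sample as a block since sorts and classes share brains. Sums of 1 sample deviated together between sorts (r = 0.382, 0.279 and 0.307 in the early, medium and late sample across 18433 genes) and less between ependymal-like and choroid plexus-like cells (0.105, 0.00266 and -0.0109 across 8505). Residual degrees of freedom were 2 and 4. SEs come from the fits. Each stage is 1 tumor sample and libraries are technical repeats. With the block, p-values measure how far differences between sorts or classes vary over 3 tumor samples of different stages. In the class fit this spread also takes in the other CD45- cells. Genes with no choroid plexus-like UMI got a lower bound from a floor of 3 counts over the class.

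Genes were named by a rule: Foxj1 and Dynlrb2, the members of each family with the most CD45- UMIs, those with the largest share outside ependymal-like cells, the most CD45+ UMIs or the highest choroid plexus-like over ependymal-like level, 23 genes in all. Others are said to be named after their values were seen or stand as examples of a group. The members and lists were chosen with earlier results of these data known. Positions are from GENCODE M21 (GRCm38). The tests were tried on simulated data. Alternatives were library sizes without TMM factors, DESeq2 1.42.0, no filter on genes or cells, no block, each tumor sample left out, the 5% highest doublet scores removed, other clustering and class rules, each run alone and shared barcodes counted once.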

Additional observations from a re-analysis of the deposited data

How the results depend on the processing

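Replicates 1, 2 and 3 stand for the early, medium and late tumors. Over all alternatives, 128 of the main counts, levels and shares moved by less than 1.5 times or their counting interval and 16 moved more. Of 972 values for single genes, 934 kept direction and call, 18 lost the call, 3 gained it (against choroid plexus-like cells, Rsph3b without TMM factors, and Dnah14 there and without a filter on cells) and 17 changed sign. With no replicate block, 27 genes were higher and 1 lower in CD45- cells, and 41 and 46 were higher in ependymal-like cells than in choroid plexus-like and other cells. Of all genes, 4398 of 18433 were then higher and 3470 lower by sort, and 1460 and 1243 of 8505 were higher in the class comparisons. Leaving out 1 tumor sample gave 26 to 41 genes higher in ependymal-like than in choroid plexus-like cells, the lowest without the early sample, which holds 92 of the 123 ependymal-like cells. Of all genes, 841 of 8348, 1384 of 12329 and 1541 of 12618 were higher without the early, medium and late sample. With every gene tested, 1 gene was lower in ependymal-like than in choroid plexus-like cells. Without a filter on cells the early ependymal-like share was 4.26%, the early share of member UMIs 38.9%, and the summed level 7534 early and 8673 at the medium stage. In single runs the early share of member UMIs was 38.2%, 32.5% and 38.8% and the medium share in run 2 was 23.5%, and the early level in run 1 was 8902. Other runs alone were calculated only with at least 10 ependymal-like cells. Classes from each cell's own markers gave 8378 at the medium stage. The 9 genes with at most 1 in 100 UMIs in CD45+ cells summed to 807, 980 and 865 early, medium and late, as fewer genes are summed.

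Each sign change concerned a gene not called in the main comparison, and the cause was not tested. By sort, Cfap20 was at -0.043 without replicate 2 and 0.14 without replicate 1, Dnah14 at 0.058 without replicate 2 and -0.80 without replicate 1, Cfap77 at 0.27 without TMM factors and 0.012 without a filter on cells, and Cfap97 at 0.26 without TMM factors. Without TMM factors the median of all genes moved from 0.0379 to 0.401 by sort and from -0.00532 to 0.284 against choroid plexus-like cells. Against choroid plexus-like cells, Cfap298 was at -0.022 with DESeq2, -0.23 with every gene tested, -0.12 without a filter on cells and -0.29 to 0.40 with 1 sample left out. Cfap36 was at 0.0095 without TMM factors. Drc7 was at 0.30 without TMM factors, 0.057 after removal of high doublet scores, 0.13 with classes from own markers and -0.30 to 0.19 with 1 sample left out. Against other cells, Dnah14 was at 0.016 without the block and 0.028 with shared barcodes counted once. The 12 late ependymal-like cells, the 2 and 4 residual degrees of freedom and 1 tumor sample per stage limit precision.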
